A study of Homo sapiens with 6 samples.

Results

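The genes examined here copy DNA in S phase: 40 genes for origin licensing, the co-factors of the replicative helicase, the replicative polymerases, the sliding clamp and its loader, replication-coupled chromatin, the E2F factors and nucleotide supply. They were picked by gene symbol from the 28278 rows of the count tables, leaving out the MCM helicase genes, and all 40 symbols were found. E2F2 was listed at 0 in all 6 libraries, so 39 of the 40 were tested, among 15131 tested genes. The study compared 2 stable derivatives of RKO, an established human colon carcinoma line of poor differentiation: one expresses an shRNA that targets TRIM21 (shTRIM21, 3 libraries), the other a scrambled shRNA (shControl, 3 libraries, genotype given as WT). TRIM21 encodes an E3 ubiquitin ligase. Cells of both groups had been infected with lentivirus and kept under puromycin, so the control carries an shRNA vector too. The labels give no shRNA sequence and no second shRNA. They call the libraries biological replicates without saying whether infections were separate, so p-values measure the spread between these libraries.

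In each cell cycle, origins of replication are first bound by the origin recognition complex, after which CDC6 and CDT1 load the MCM helicase, a step that geminin (GMNN) blocks outside G1. Cyclin E with its kinase and the CDC7-DBF4 kinase then start S phase, when CDC45 and the GINS complex join MCM to form the active helicase, called CMG. Many of these genes are transcribed by E2F factors released from RB as cells pass from G1 into S phase. Fast-dividing carcinoma cells express them at high levels.

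Promoter sequences are set out first, because E2F factors and the CCAAT-binding factor NF-Y are the textbook regulators of these genes. RefSeq windows (GRCh38.p14), 250 bases before to 50 after a start site, were found for 36 members. GINS4, E2F8, CCNE2 and POLD3 were not among them. The 4 E2F words TTTGGCGC, TTTGCCGC, TTTCGCGC and TTTCCCGC were searched on both strands, can overlap each other, and were found for 19 of the 36 members (52.8%), against 3.99% of the 27305 genes in the table and 6.48% of the 11266 tested genes in it. The word CCAAT, in either direction, was found for 20 members (55.6%), against 39.7% of all genes in the table and 42.7% of the tested genes in it. Among the called members with a window, 3 of 8 held an E2F word (UHRF1, TYMS and POLE) and 6 of 8 held CCAAT. Of the 27 tested members not called, 15 held an E2F word. A match is a description of the letters and not a bound site. A promoter without these exact words may still hold a variant of them, so their absence does not show that E2F sites are absent.

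The 130 bases before the start site are shown for 7 called members and for E2F1, which was not called and holds 2 E2F words. The other called member with a window, POLD1, held neither an E2F word nor CCAAT and is not shown. E2F words and CCAAT, in either direction, are in capitals. Where a gene had several windows, the one with the most words in this stretch was taken, and for UHRF1, where 2 windows held 2 words each, the first in the table. In the stretch shown, the E2F word of UHRF1 began 14 bases before the start site, that of POLE 18 and that of TYMS 39. RRM2, whose level was lower in shTRIM21, and RRM1, whose level was higher, both held CCAAT and no E2F word here. In POLE the CCAAT word overlaps its own reverse complement.
UHRF1, chr19:4909371-4909500, plus strand: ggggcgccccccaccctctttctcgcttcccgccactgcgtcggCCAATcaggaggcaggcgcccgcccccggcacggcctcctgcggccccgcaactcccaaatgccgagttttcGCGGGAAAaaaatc
TYMS, chr18:657523-657652, plus strand: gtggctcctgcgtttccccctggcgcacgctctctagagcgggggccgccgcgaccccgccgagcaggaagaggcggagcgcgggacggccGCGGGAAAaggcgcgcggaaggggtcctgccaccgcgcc
POLE, chr12:132687343-132687472, minus strand: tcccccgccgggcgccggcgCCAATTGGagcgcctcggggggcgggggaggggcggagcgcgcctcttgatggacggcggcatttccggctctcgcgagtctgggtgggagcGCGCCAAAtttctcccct
E2F1, chr20:33686386-33686515, minus strand: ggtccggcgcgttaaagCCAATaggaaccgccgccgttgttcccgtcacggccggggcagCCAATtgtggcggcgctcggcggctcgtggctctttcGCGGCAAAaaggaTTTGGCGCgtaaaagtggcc
ORC1, chr1:52404424-52404553, minus strand: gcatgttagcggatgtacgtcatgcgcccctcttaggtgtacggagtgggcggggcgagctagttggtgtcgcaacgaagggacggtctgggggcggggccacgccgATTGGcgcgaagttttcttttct
CDC45, chr22:19479790-19479919, plus strand: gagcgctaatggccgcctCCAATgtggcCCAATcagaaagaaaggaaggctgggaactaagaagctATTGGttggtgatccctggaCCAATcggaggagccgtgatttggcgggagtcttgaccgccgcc
RRM2, chr2:10122609-10122738, plus strand: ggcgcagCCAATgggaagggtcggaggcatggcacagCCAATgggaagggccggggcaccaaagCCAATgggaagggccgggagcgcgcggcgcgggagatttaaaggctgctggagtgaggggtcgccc
RRM1, chr11:4094555-4094684, plus strand: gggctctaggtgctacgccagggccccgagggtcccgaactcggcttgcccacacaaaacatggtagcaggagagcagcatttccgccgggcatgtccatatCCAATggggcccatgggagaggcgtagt

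TRIM21 itself fell by 31.3% in shTRIM21, from 11.0 ± 1.40 to 7.58 ± 0.574 CPM, which are counts scaled to library size (SD, n = 3 each; edgeR adjusted p = 0.00424), a call that was lost with library sizes alone. The libraries held 33499827 to 44466137 counts, of which ribosomal RNA rows took 16.99% to 23.5% in shTRIM21 and 31.0%, 14.7% and 36.9% in shControl replicates 1, 2 and 3. Without these rows, totals were 27808151 to 29100459. CPM are taken on library sizes scaled with TMM factors. Differences are log2 fold changes of shTRIM21 over shControl from edgeR's quasi-likelihood test, with Benjamini-Hochberg adjustment over all tested genes, and a gene is called at an adjusted p under 0.05. Members had between 393 counts (POLE2) and 15696 counts (RRM2) in a library, and standard errors (SE) of their log2 fold changes ran from 0.049 to 0.10. The epithelial markers EPCAM (163 to 202 CPM), KRT8 and CDX2 were present and KRT20 was low (0.36 to 2.03 CPM). The 8 epithelial markers summed to 4637 to 4879 CPM in shTRIM21 and 5969 to 6635 CPM in shControl, a sum carried by KRT8, KRT18 and KRT19. CDH1 went the other way, at 59.0 to 67.3 CPM in shTRIM21 and 39.3 to 43.6 CPM in shControl, and EPCAM and CDX2 overlapped. Of 6 fibroblast markers DCN and LUM were at 0 in all libraries, and the sum, nearly all COL1A1, was 10.5 to 11.0 CPM in shTRIM21 and 6.15 to 9.19 CPM in shControl. Of 6 haematopoietic markers CD3E was at 0 and PTPRC reached at most 0.0276 CPM, and the sum, nearly all CD68, was 5.81 to 6.69 CPM in shTRIM21 and 7.09 to 8.21 CPM in shControl. Of 4 endothelial markers CDH5 was at 0, and the sums overlapped, at 0.343 to 0.773 and 0.435 to 0.717 CPM. The part of these differences in the results was not tested.

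Of the 39 tested members 8 fell in shTRIM21 (20.5%; 0 with library sizes alone), where 11.0% of all tested genes did, and 1 rose (2.56%), where 9.77% of all tested genes did. Members' SEs were at most 0.10, while those of all tested genes reached 1.12. Genes measured more precisely can be called more often at the same fold change, and the part of this in the shares was not tested. E2F8, UHRF1, TYMS, CDC45, ORC1, POLD1, RRM2 and POLE fell: RRM2 fell by 11.3%, the least, and E2F8 fell by 29.3%, the most. RRM1 rose by 17.6%. The other 30 members were not called. Most fold changes were small and on one side: 31 of 39 were below 0, beside 7426 of the 15131 tested genes. The members' median log2 fold change was -0.12 against 0.0054 over all tested genes. With library sizes alone these medians were 0.085 and 0.22, so most members were then above 0. The shTRIM21 libraries lay below all shControl libraries for 13 members (33.3%, against 19.0% of tested genes) and above them for 2 (5.13%, against 18.7%). RNA was taken from whole cultures, so fewer cells in S phase and less of each transcript per cell cannot be told apart.

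The sign of these medians depends on how the libraries are scaled. With library sizes alone, which count the ribosomal RNA rows, the members' median was 0.085 and 0 members were called lower, while the median of all tested genes moved to 0.22. With upper-quartile factors the members' median was -0.083 beside 0.047 for all genes, and with ribosomal RNA rows removed and no factors -0.059 beside 0.071. In that last fit 5 members were called lower and 3 higher, GMNN and GINS4 having joined RRM1. Under each of the 6 scalings, the members' median lay 0.13 below the median of all genes. A change of scaling moves all genes by nearly the same amount. The gap was therefore bound to stay, and is not a separate result of each scaling. The falls below are therefore falls relative to the bulk of the transcriptome of these libraries. The role groups below hold 3 to 7 tested genes, and their counts stand beside the same shares of all tested genes, 11.0% lower and 9.77% higher; in groups this small nothing is read from a share.

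**Figure D1:**
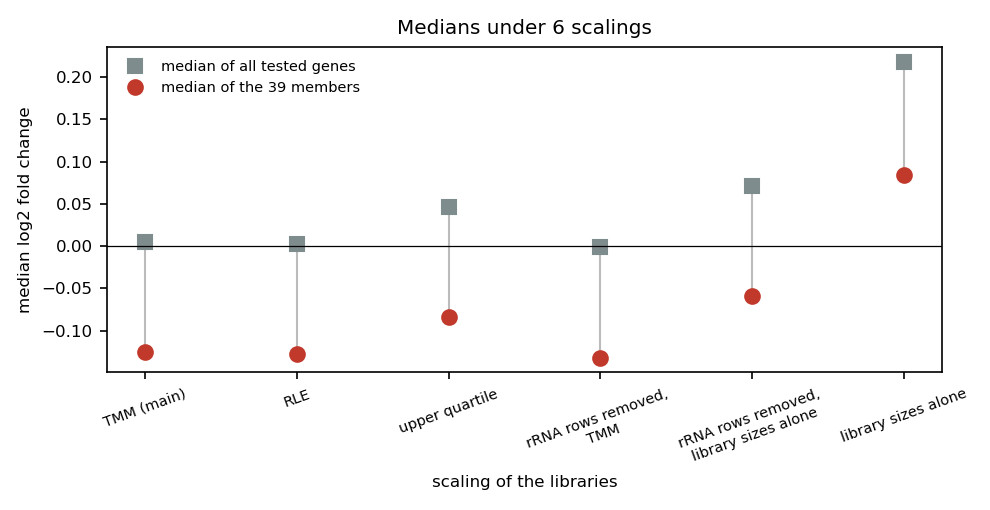
Median log2 fold change (shTRIM21 over shControl, vertical axis) of the 39 tested members (red circles) and of all tested genes (grey squares) under 6 ways of scaling the libraries (horizontal axis); thin lines join the medians of one scaling. Both medians shift upward together, to 0.085 and 0.22 with library sizes alone. They stay 0.13 apart, since a change of scaling moves all genes by nearly the same amount.

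E2F factors and drivers of the G1/S step come first. E2F8, an atypical E2F that represses transcription, had the lowest p of the members. Its level was 17.5, 18.4 and 18.2 CPM in shTRIM21 replicates 1, 2 and 3 and 25.2, 26.9 and 24.4 CPM in shControl. All shTRIM21 libraries lay below all shControl libraries. On the log2 scale E2F8 stood at -0.50 (SE 0.076, 95% interval -0.66 to -0.34, edgeR adjusted p = 0.000316), and -0.30 with library sizes alone, where the call was lost. E2F8 lies on chromosome 11 at 19224063 to 19241655 and overlaps CSRP3-AS1.

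The other tested genes of this group were not called. E2F7, the second atypical E2F, was at 32.1 ± 2.25 CPM in shTRIM21 and 33.9 ± 1.03 CPM in shControl (SD, n = 3 each), a log2 fold change of -0.081 (95% interval -0.23 to 0.068). E2F1, an activator, was at 27.6 ± 1.07 and 27.0 ± 0.519 CPM, a log2 fold change of 0.033 (95% interval -0.11 to 0.18). Both intervals exclude a fall of the size seen for E2F8. CDC25A, the phosphatase that activates the S-phase cyclin-dependent kinases, was at 31.4, 32.2 and 35.8 CPM in shTRIM21 and 33.2, 41.5 and 36.3 CPM in shControl. These groups overlapped (log2 fold change -0.16, edgeR adjusted p = 0.194). The cyclin E genes CCNE1 and CCNE2 were at -0.12 and -0.17, each with overlapping groups. E2F2, another activator, had a count of 0 in each of the 6 libraries.

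The count of one gene over that of another within a library carries no scaling factor, and 4 such ratios are given as a description. The genes were chosen after their values were seen, so no test of the ratios is read. In shTRIM21 the E2F8 count was 0.662, 0.650 and 0.648 of the E2F1 count, and in shControl 0.934, 0.977 and 0.923. The means were 0.653 ± 0.00761 and 0.945 ± 0.0287 (SD, n = 3 each), which restates the lower E2F8 level beside a similar E2F1 level.

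Nucleotide supply was the group in which all tested genes were called, and its genes moved in opposite directions. Ribonucleotide reductase makes deoxyribonucleotides and is built of a large subunit, RRM1, and a small subunit, RRM2. RRM1 was at 137, 136 and 133 CPM in shTRIM21 and at 114, 114 and 118 CPM in shControl. All shTRIM21 libraries were above all shControl libraries (log2 fold change 0.23, SE 0.050, 95% interval 0.13 to 0.34, edgeR adjusted p = 0.00394). RRM1 was called higher in all 16 alternative fits.

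RRM2, which limits the enzyme's activity in S phase, was at 365, 364 and 351 CPM in shTRIM21 and 381, 427 and 408 CPM in shControl. Its groups did not overlap, and the gap between the nearest libraries was small (log2 fold change -0.17, SE 0.054, edgeR adjusted p = 0.0359). Its call was lost in 9 of 16 alternative fits, among them those without shTRIM21 replicate 1, 2 or 3 or shControl replicate 2 or 3, and the sign turned with library sizes alone (0.033). Free of scaling, in shTRIM21 the RRM1 count was 0.377, 0.374 and 0.380 of the RRM2 count, and in shControl 0.300, 0.267 and 0.288. With the levels of both genes apart in opposite directions, these ratios could not overlap.

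TYMS, thymidylate synthase, was at 177, 185 and 177 CPM in shTRIM21 and at 210, 235 and 216 CPM in shControl. All shTRIM21 libraries were below all shControl libraries (log2 fold change -0.29, SE 0.055, edgeR adjusted p = 0.00178). With library sizes alone TYMS was at -0.089 and not called. TYMS overlaps ENOSF1 and TYMSOS on the annotation, so their reads may be shared. ENOSF1 was called lower too, at -0.22 (edgeR adjusted p = 0.0113; -0.0041 with library sizes alone). TYMSOS was at -0.37 with overlapping groups and was not called (edgeR adjusted p = 0.0713).

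**Figure D2:**
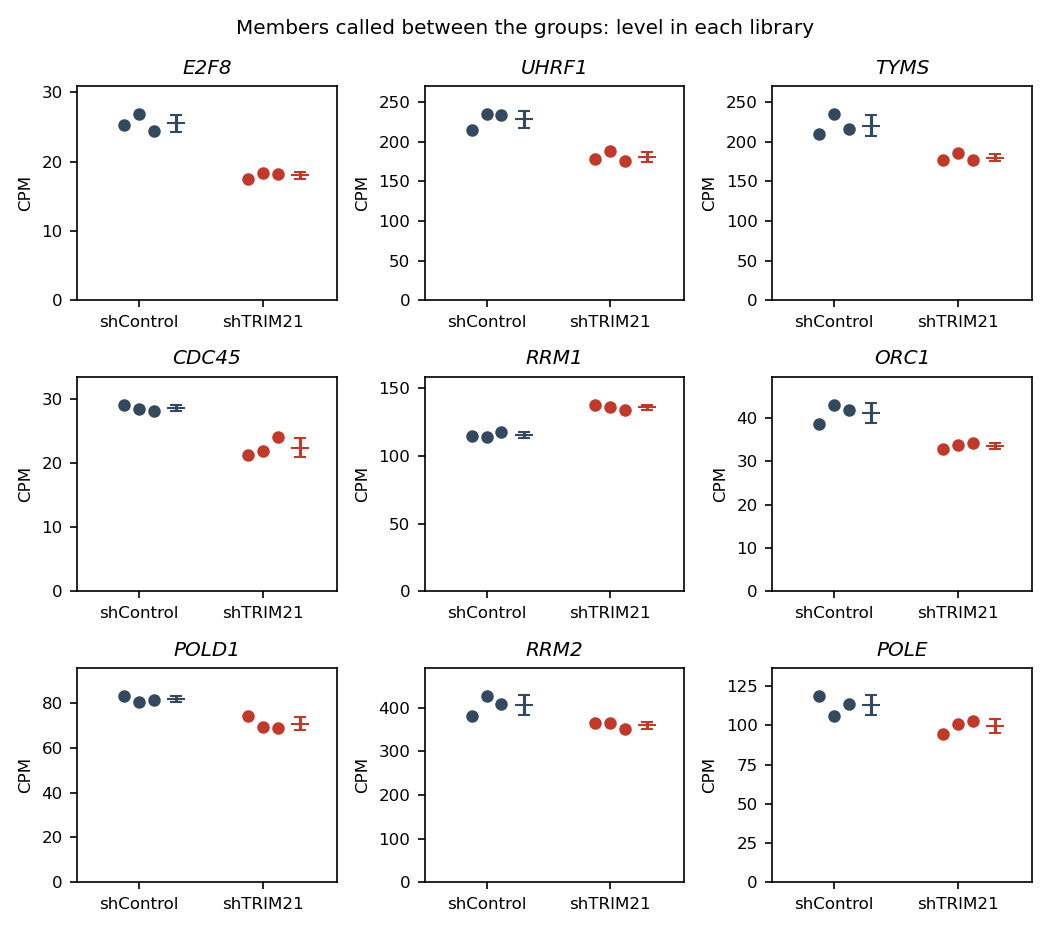
Level (CPM on TMM-scaled library sizes, vertical axis from 0) of the 9 called members in each library; points are the 3 libraries of each group in replicate order, and the bar beside them is the mean with its SD. In E2F8 the shTRIM21 libraries sit at 17.5 to 18.4 CPM below 24.4 to 26.9 CPM in shControl, and RRM1 is the panel in which shTRIM21 is higher.

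**Figure D3:**
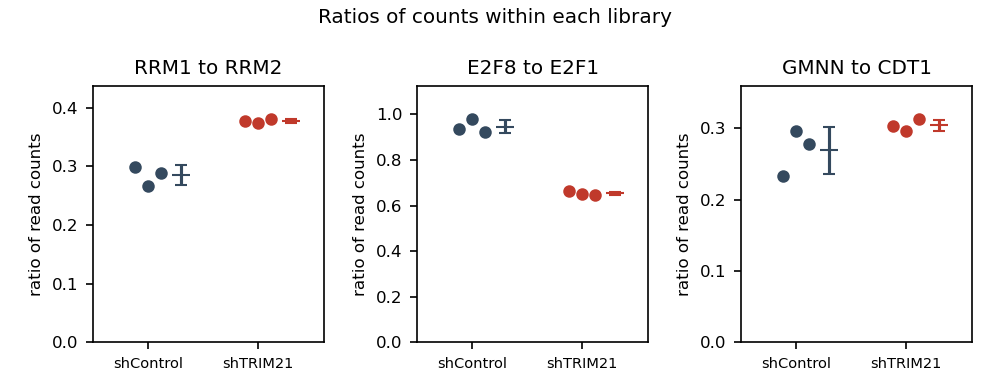
Ratio of read counts of 2 genes within each library (vertical axis from 0); points are libraries and bars the mean with SD over 3. The groups lie apart for RRM1 to RRM2 and E2F8 to E2F1, genes chosen after their levels were seen, and overlap for GMNN to CDT1; the ratio of PCNA-AS1 to PCNA, not drawn, lay apart too.

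Among the genes that license origins, 1 of 6 fell and 0 rose. ORC1, the subunit of the origin recognition complex whose level varies over the cell cycle, was at 32.8, 33.6 and 34.1 CPM in shTRIM21 and 38.6, 42.9 and 41.7 CPM in shControl. The groups were clearly apart (log2 fold change -0.29, SE 0.065, edgeR adjusted p = 0.00502; -0.084 and not called with library sizes alone). ORC1 overlaps PRPF38A, which was at -0.0096 and not called. The other subunits ORC2 and ORC6 were at -0.088 and -0.059, with 95% intervals of -0.24 to 0.060 and -0.22 to 0.098.

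CDC6, the loader of the helicase, was at 92.0, 95.3 and 92.3 CPM in shTRIM21 and 96.5, 111 and 100.4 CPM in shControl. The shTRIM21 libraries were all lower, yet the difference was not called (log2 fold change -0.14, edgeR adjusted p = 0.112). CDT1 was at -0.062 with overlapping groups. Its inhibitor GMNN was at 44.3, 42.9 and 43.1 CPM in shTRIM21 and 37.3, 41.6 and 40.8 CPM in shControl, all higher and not called (log2 fold change 0.12, edgeR adjusted p = 0.193). In shTRIM21 the GMNN count was 0.303, 0.297 and 0.313 of the CDT1 count, and in shControl 0.233, 0.297 and 0.278. These ratios overlapped.

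Of the 7 genes for the firing kinase and the CMG co-factors, 1 fell and 0 rose. CDC45 was at 21.3, 21.9 and 24.1 CPM in shTRIM21 and at 29.1, 28.5 and 28.2 CPM in shControl. All shControl libraries lay above shTRIM21 (log2 fold change -0.35, SE 0.073, 95% interval -0.51 to -0.19, edgeR adjusted p = 0.00353). The call was lost with library sizes alone (-0.14) and, narrowly, without shControl replicates 1 and 3 together (-0.35, edgeR adjusted p = 0.0501).

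The 4 GINS genes encode the subunits of one complex that binds CDC45 and MCM, and 0 of them were called. GINS4 was at 27.8, 32.0 and 30.5 CPM in shTRIM21 and 26.5, 26.1 and 28.4 CPM in shControl, overlapping at one library (log2 fold change 0.16, edgeR adjusted p = 0.147). GINS3 was at 26.6, 22.6 and 24.6 CPM in shTRIM21 and 25.9, 28.3 and 27.8 CPM in shControl (log2 fold change -0.15, edgeR adjusted p = 0.196). GINS1 and GINS2 were at -0.12 and -0.067. DBF4, the activating subunit of the CDC7 kinase, was at 40.4, 36.8 and 40.5 CPM in shTRIM21 and 41.4, 44.9 and 43.8 CPM in shControl. Its groups were adjacent without overlap (log2 fold change -0.15, edgeR adjusted p = 0.128), and CDC7 itself was at -0.071.

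Of the 7 polymerase genes 2 fell and 0 rose, with the lowest median of the groups larger than 3 genes, -0.19 (0.018 with library sizes alone). POLD1, the catalytic subunit of DNA polymerase delta on the lagging strand, was at 74.3, 69.2 and 68.7 CPM in shTRIM21 and 83.0, 80.4 and 81.2 CPM in shControl. The groups did not overlap (log2 fold change -0.21, SE 0.055, edgeR adjusted p = 0.0168). POLD1 lies on chromosome 19 at 50384323 to 50418018. Its call was lost in 5 of 16 alternative fits, among them those without shTRIM21 replicate 2 (edgeR adjusted p = 0.0845) or shControl replicate 1 (edgeR adjusted p = 0.0509), and its sign turned with library sizes alone (0.0071).

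POLE, the catalytic subunit of the leading-strand polymerase epsilon, was at 94.6, 101 and 103 CPM in shTRIM21 and 119, 106 and 114 CPM in shControl. The nearest libraries differed by little (log2 fold change -0.18, SE 0.058, edgeR adjusted p = 0.0382). This call was lost in 9 of 16 alternative fits, including those without shTRIM21 replicate 1 or 2 or shControl replicate 1 or 3, and the sign turned with library sizes alone (0.036). The lowest p-values among uncalled members were those of 2 further polymerase subunits. POLD3, an accessory subunit of polymerase delta, was at 15.0, 15.9 and 17.0 CPM in shTRIM21 and 16.9, 21.4 and 19.1 CPM in shControl, just overlapping (log2 fold change -0.26, edgeR adjusted p = 0.0682). POLE2, of polymerase epsilon, was at 12.3, 12.05 and 10.4 CPM in shTRIM21 and 13.2, 13.95 and 13.96 CPM in shControl, without overlap (log2 fold change -0.24, edgeR adjusted p = 0.0840).

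Polymerase alpha and primase together begin each new strand. The catalytic subunit gene POLA1 was at 38.0, 39.5 and 41.8 CPM in shTRIM21 and 41.1, 45.5 and 45.1 CPM in shControl, overlapping (log2 fold change -0.14, edgeR adjusted p = 0.145). POLA2 was at 22.1, 24.9 and 21.5 CPM in shTRIM21 and 25.3, 26.3 and 26.7 CPM in shControl, without overlap (log2 fold change -0.19, edgeR adjusted p = 0.0944). The primase gene PRIM1, by contrast in sign, was at 0.088 (95% interval -0.075 to 0.25).

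The clamp, clamp loader and Okazaki fragment genes were the group with the median nearest 0, and 0 of 7 were called (median -0.0013, 0.21 with library sizes alone). PCNA, the sliding clamp, was at 308, 296 and 288 CPM in shTRIM21 and 306, 351 and 329 CPM in shControl. One shTRIM21 library exceeded the lowest shControl library (log2 fold change -0.15, edgeR adjusted p = 0.0865). PCNA was called without shControl replicate 1 (-0.20, edgeR adjusted p = 0.0355) and without shControl replicates 1 and 3 together (-0.25, edgeR adjusted p = 0.0416). The antisense gene PCNA-AS1 overlaps PCNA, its counts were 0.369 to 0.384 of the PCNA counts in shTRIM21 and 0.389 to 0.414 in shControl, and it was called lower, at -0.23 (edgeR adjusted p = 0.0225; not called with library sizes alone), so the reads of the pair cannot be separated without strand.

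The clamp loader subunits RFC2, RFC3, RFC4 and RFC5 were at -0.0013, -0.077, 0.057 and 0.046. RFC2 was the steadiest, at 49.5 ± 0.802 CPM in shTRIM21 and 49.5 ± 0.879 CPM in shControl (SD, n = 3 each; 95% interval of the log2 fold change -0.12 to 0.12). FEN1, which trims the flaps of Okazaki fragments, was at 210.1 ± 3.34 and 215 ± 6.07 CPM, and LIG1, which seals them, at 66.2 ± 0.786 and 64.4 ± 1.63 CPM. Their 95% intervals of -0.14 to 0.075 and -0.078 to 0.15 exclude falls as large as that of TYMS.

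Of the 3 genes that restore chromatin behind the fork, 1 fell. UHRF1, which recognises half-methylated DNA and recruits the maintenance methyltransferase, was at 178, 188 and 176 CPM in shTRIM21 and at 215, 235 and 234 CPM in shControl. The groups were well apart (log2 fold change -0.33, SE 0.054, 95% interval -0.45 to -0.22, edgeR adjusted p = 0.000584; -0.13 and not called with library sizes alone). CHAF1B, of the histone chaperone CAF-1, was at 40.5, 41.7 and 41.1 CPM in shTRIM21 and 49.2, 43.8 and 44.1 CPM in shControl. All shTRIM21 libraries were lower, and the difference was not called (log2 fold change -0.15, edgeR adjusted p = 0.106). CHAF1A, its partner, was at -0.089 with overlapping groups.

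**Figure D4:**
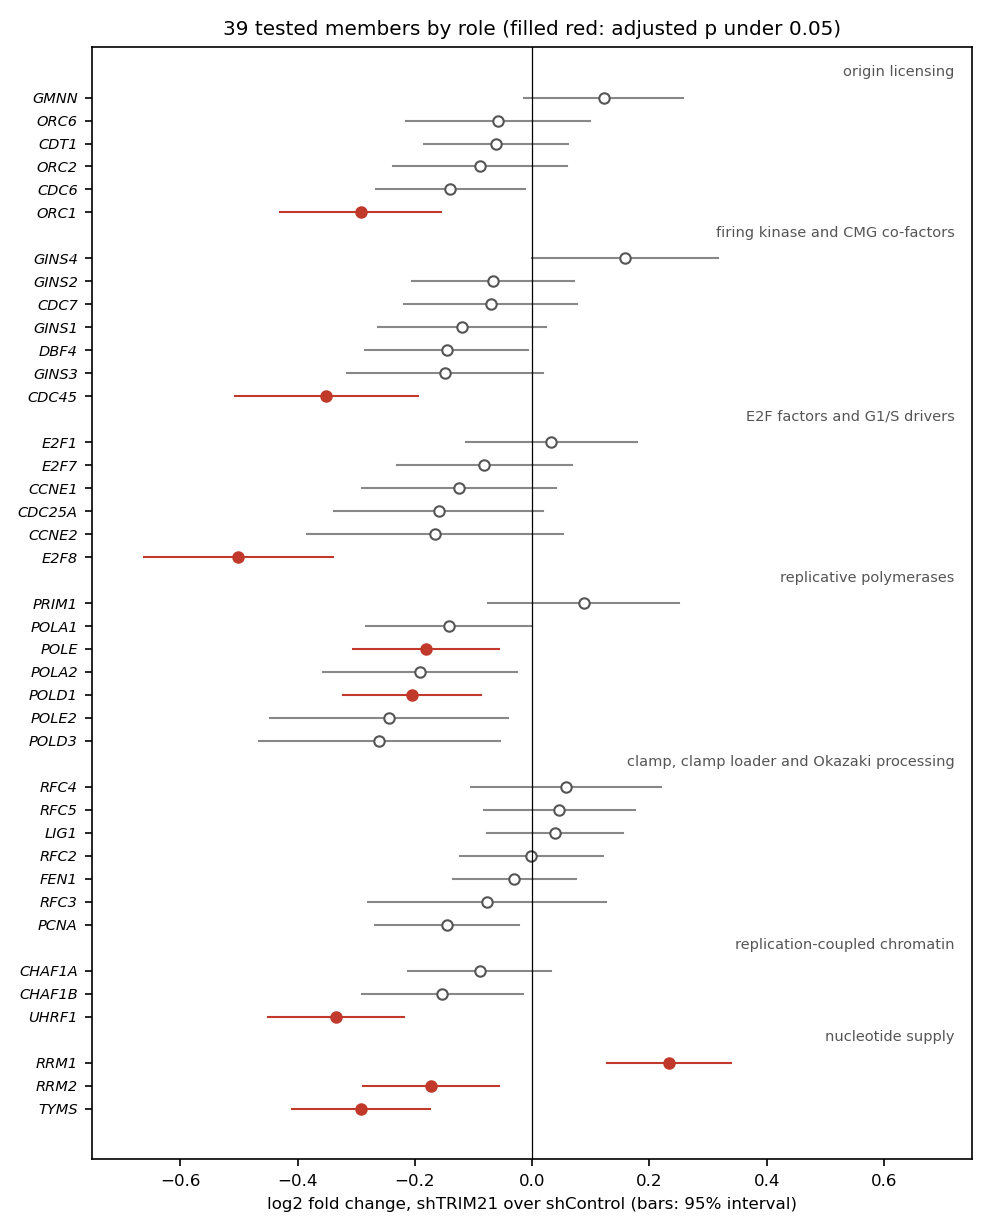
Log2 fold change (shTRIM21 over shControl, horizontal axis) of the 39 tested members, grouped by role; points are estimates, bars 95% intervals, and filled red points are called. With TMM factors 31 points lie left of 0 (with library sizes alone the median turns to 0.085), from E2F8 at -0.50, and RRM1 at 0.23 is the called member on the right; the clamp loader genes straddle 0.

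Levels per length show how unequal the members are. Per kilobase of exon, PCNA stood highest in shControl at 223.5 ± 15.5 CPM, followed by TYMS at 132 ± 7.99, RRM2 at 105 ± 5.94 and FEN1 at 93.5 ± 2.64 CPM (SD, n = 3 each). The ranges of PCNA and TYMS were far apart, while those of RRM2 and FEN1 lay close together. At the other end were POLD3 at 4.63 ± 0.538, GINS4 at 4.94 ± 0.222 and E2F7 at 5.91 ± 0.179 CPM per kilobase. Subunits of one enzyme differed widely in transcript level: POLD1 stood at 23.1 ± 0.375 CPM per kilobase beside POLD3, and POLE at 14.4 ± 0.801 beside POLE2 at 6.16 ± 0.199. RRM1, at 34.3 ± 0.623 CPM per kilobase, was well below its partner RRM2. These levels rest on exon lengths of GENCODE release 29, which may differ from the transcripts RKO cells use.

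Libraries of one group also differed. Set against the mean of shControl, 27, 29 and 32 of the 39 members were lower in shTRIM21 replicates 1, 2 and 3. In shControl replicate 1, 30 members were below that mean and in shControl replicate 2, 30 were above it. The median over members was -0.093, -0.10 and -0.15 for shTRIM21 replicates 1, 2 and 3, and -0.055, 0.042 and 0.0099 for those of shControl (log2 of the level over the shControl mean). The shControl library with the highest median, replicate 2, had the lowest share of ribosomal RNA (14.7%). In shControl replicate 3 the share was 36.9% and the median above that of replicate 1, with 31.0%. In shTRIM21 the library with the lowest share, replicate 3 (16.99%), had the lowest median. The part of that share in the result was not tested.

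Other genes of the same processes were read from lists of related genes. The counts for each list are read against the shares of all tested genes, 11.0% lower and 9.77% higher. As for the members, lists measured more precisely than other genes can be called more often at the same fold change. Of the 6 MCM helicase genes, MCM2 and MCM7 fell (log2 fold change -0.18 and -0.19, each above 0 with library sizes alone). MCM2 was not called with upper-quartile factors. With ribosomal RNA rows removed and no factors neither MCM2 nor MCM7 was called. MCM6 rose from 62.2 ± 4.24 to 119 ± 5.21 CPM (SD, n = 3 each, log2 fold change 0.93, SE 0.062, edgeR adjusted p = 1.11e-07).

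Of 37 other fork and origin genes 3 fell (8.11%) and 2 rose (5.41%), both shares below those of all tested genes. With ribosomal RNA rows removed and no factors 2 fell and 4 rose. The list had a median of -0.054 (0.15 with library sizes alone and 0.012 with ribosomal RNA rows removed and no factors). MCM10, which helps CDC45 join the helicase, fell by 21.0% (log2 fold change -0.34, SE 0.065, edgeR adjusted p = 0.00185). CLSPN, a checkpoint adaptor gene, fell by 20.8%, at -0.34 on the log2 scale (SE 0.070, edgeR adjusted p = 0.00353). DNMT1, the methyltransferase that UHRF1 recruits, fell by 11.8%, at -0.18 (SE 0.050, edgeR adjusted p = 0.0189). With library sizes alone these 3 were not called, and DNMT1 was at 0.032. With upper-quartile factors, and with ribosomal RNA rows removed and no factors, DNMT1 was not called, while MCM10 and CLSPN were. The origin subunit gene ORC5 rose by 19.2% and RNASEH2A, of an enzyme that removes ribonucleotides from DNA, by 13.9%. Thus ORC1 and ORC5, of one complex, were called in opposite directions with TMM factors. With library sizes alone ORC5 was still called, and ORC1 and RNASEH2A were not.

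In the RB-E2F network 5 of 17 genes fell (29.4%, against 11.0% of all tested genes) and 0 rose (against 9.77%). With upper-quartile factors, and with ribosomal RNA rows removed and no factors, 4 fell and 2 rose, and with library sizes alone 0 did either. The list had a median of -0.056 (0.15 with library sizes alone and 0.0091 with ribosomal RNA rows removed and no factors). The lowest p-values were those of LIN54 and MYBL2, whose products act in the DREAM and MuvB complexes, and of the cyclin A gene CCNA2. LIN54 was at -0.43 (edgeR adjusted p = 0.00126), MYBL2 at -0.28 (0.00135) and CCNA2 at -0.26 (0.00758). None of these 3 was called with library sizes alone. RB1 and RBL1 were among the 12 genes not called.

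Messenger RNAs of the replication-dependent histones accumulate in S phase, lack a poly(A) tail and can be read in total RNA. Of 65 such rows 29 passed the filter on low counts, most at very low levels (median 0.856 CPM), so this list has little precision, with SEs up to 0.74. The shControl mean of RRM2, by comparison, was 406 CPM. How fully these rows capture the histone mRNA of S phase was not tested, and nothing about S phase is read from them. Among these 29 rows, 6 share all their counts with another row, so the figures that follow hold some measurements more than once. Of the 29, 2 fell (6.90%, against 11.0% of all tested genes) and 0 rose, and the median was 0.040 (0.26 with library sizes alone). Both that fell, H2AC18 and H2AC19, carry the same count in every library (log2 fold change -0.43, SE 0.12, edgeR adjusted p = 0.0212; -0.21 and not called with library sizes alone) and so are 1 measurement. The most abundant, H2BC12, was at 16.6 ± 0.503 CPM in shTRIM21 and 16.9 ± 1.45 CPM in shControl (SD, n = 3 each) and was not called. Its row spans 27138293 to 27146858 on chromosome 6 and overlaps H4C9, so its count may not be of H2BC12 alone. H1-2 was at 7.09 ± 0.470 and 8.18 ± 1.02 CPM, also not called.

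**Figure D5:**
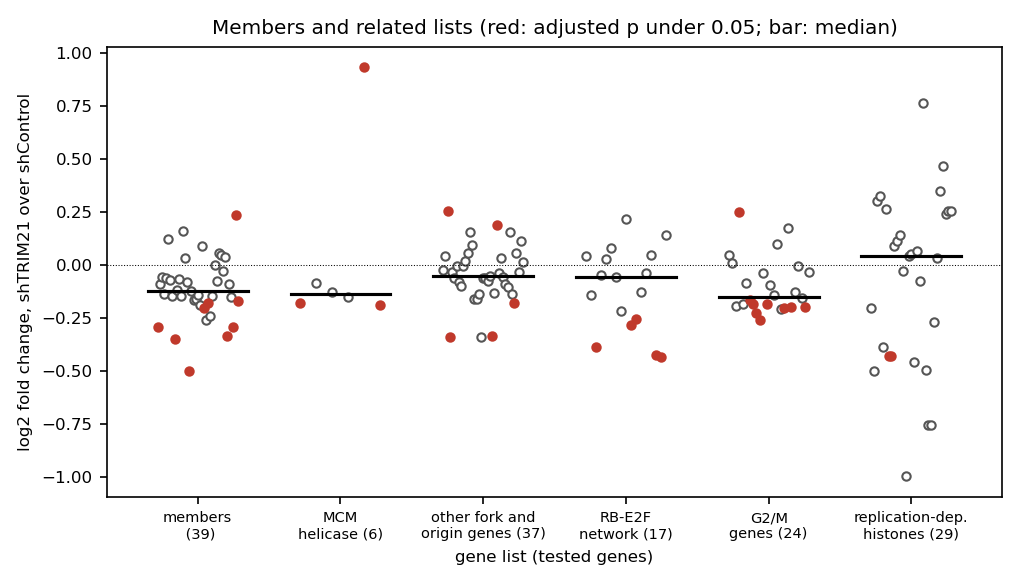
Log2 fold change (shTRIM21 over shControl, vertical axis) of each tested gene in the members' list and 5 related lists (horizontal axis, number tested in brackets); red points are called and black bars are medians. With TMM factors the medians run from -0.15 for the G2/M genes (0.061 with library sizes alone) to 0.040 for the histones, and MCM6 at 0.93 is the highest point.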

How the data were processed

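For each library the authors deposited a table of whole-number counts, 28278 gene symbols long and not normalized. Per the labels' protocols, total RNA was depleted of ribosomal RNA before library preparation. The submitters' processing notes list limma 3.52.2, edgeR 3.38.1, TopHat2 and the build hg38 without roles. Which program counted reads, on which annotation and whether by strand, is not given in the sources used here. A source label reads as mouse tissue, but the organism, the cell line and the symbols are human. A count of 0 in every library was found for 7790 symbols.

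Counts were tested with R 4.3.3 and edgeR 4.0.16 (filterByExpr, minimum count 10 and minimum total 15; TMM; glmQLFit and glmQLFTest) across all 15131 genes kept. Standard errors are the log2 fold change over the square root of F. The fit was tested on simulated data. Alternatives were 5 other scalings, no filter, DESeq2 1.42.0, limma-voom 3.58.1, a replicate block and libraries left out. For the ratios of counts an exact permutation test was run over the libraries. With 3 libraries a group its p-value cannot fall below 0.1, so nothing is drawn from it. Of the symbols, 26998 (95.5%) matched RefSeq (GRCh38.p14), and 23 members overlap another gene there.

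Members and lists were chosen with earlier results of these data known, so counts are read against the shares of all tested genes and no list was tested. Described with values in every library were all called members and those with an adjusted p under 0.2; other lists gave up to 3 called genes a direction, and the histones their most abundant rows.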

Additional observations from a re-analysis of the deposited data

How the results depend on the processing

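RLE factors, TMM after removing ribosomal RNA rows, DESeq2 and limma-voom called the same 9 members as edgeR with TMM. Library sizes alone called 1968 genes against 3146 (93.0% of them higher, against 47.0%; 62.1% with upper-quartile factors and 69.2% with ribosomal RNA rows removed and no factors), with 0 members lower and RRM1 higher. The members' median was then 0.085. POLD1 was at 0.0071, RRM2 at 0.033, POLE at 0.036, PCNA at 0.058, POLA2 at 0.018 and CHAF1B at 0.060. CDC6 was at 0.062, DBF4 at 0.065, POLA1 at 0.069, CDC25A at 0.042 and GINS3 at 0.062. All these signs were turned. Each value stays below the all-gene median of 0.22 there, which moved up with them. With ribosomal RNA rows removed and no factors, 5 members were lower and 3 higher (median -0.059), and POLD1, RRM2 and POLE were not called. Leaving out 1 library at a time gave 1844 to 2592 called genes, 5 to 8 members lower, 1 higher in each, and medians of -0.14 to -0.096; the lowest counts came without shTRIM21 replicate 2. Without shControl replicates 1 and 3 together, 1958 genes and 9 members lower were called, CDC6, CDC25A, POLD3 and PCNA among them and CDC45, POLD1 and POLE not; the lone control is assumed to vary like the other group. E2F8, UHRF1, TYMS and ORC1 kept their call in 15 of 16 alternatives, CDC45 in 14 and RRM1 in 16. The replicate block gave 2905 genes, 6 members lower and 1 higher, RRM2 (edgeR adjusted p = 0.0518) and POLE (0.0558) being lost. Libraries with the same number did not deviate together (correlations of -0.012, -0.012 and -0.074 across genes), so the numbers were not taken as pairs. Members' SEs of 0.049 to 0.10 on the log2 scale limit what 3 libraries a group can show, and a member not called is not shown to be equal in both groups.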

Other observations

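Genes of G2 and mitosis, which follow S phase, were read from a list of 24. In shTRIM21 8 fell (33.3%, against 11.0% of all tested genes) and 1 rose (4.17%, against 9.77%). SEs of this list were at most 0.11, so the same limit of unequal precision applies to these shares. With upper-quartile factors 5 fell and 2 rose, and with ribosomal RNA rows removed and no factors 3 fell and 2 rose. The median log2 fold change was -0.15 (0.061 with library sizes alone, where 0 were called lower). The mitotic kinase genes PLK1 and AURKB were at -0.26 (edgeR adjusted p = 0.00183) and -0.23 (0.00815), and CDC20, an activator of the anaphase-promoting complex, was at -0.20 (0.0120; 0.0041 on the log2 scale with library sizes alone). PLK1 went from 207 ± 6.02 to 173 ± 3.33 CPM (SD, n = 3 each), without overlap. TOP2A, the topoisomerase that untangles replicated chromosomes, rose from 120.3 ± 2.29 to 143 ± 8.27 CPM (SD, n = 3 each; log2 fold change 0.25, SE 0.055, edgeR adjusted p = 0.00487), also with library sizes alone.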
